A study of Mus musculus with 7 samples.

Results

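The 9 genes described here encode the subunits of activin and inhibin (Inhba, Inhbb and Inha), follistatin and its relatives (Fst, Fstl3 and Fstl1), and the activin receptors (Acvr1b, Acvr2a and Acvr2b). They were taken by symbol from the 31274 rows of the deposited RNA sequencing table, and all 9 were present. Whole uteri had been taken from ovary-intact, untreated females of the outbred CD-1 strain at 2 months of age. There were 4 libraries of uteri in diestrus, when progesterone dominates the ovarian cycle, and 3 of uteri in estrus, after the estradiol peak. It is not stated whether the libraries of a group stand for different mice. The p-values therefore cover the spread between these libraries, which may be technical.

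Activins are secreted dimers of beta subunits: the product of Inhba makes activin A and that of Inhbb activin B. A beta subunit joined to the alpha subunit, the product of Inha, makes inhibin, which opposes activin. Follistatin (Fst) and Fstl3 bind activin outside the cell and keep it from its receptors. Activin binds the type II receptors Acvr2a or Acvr2b, which then activate the type I receptor Acvr1b, and Acvr1b phosphorylates Smad2 and Smad3. In the uterus, activin signalling is known for its part in implantation and in decidualization, the change of stromal cells that supports an embryo.

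Both beta subunits and the type I receptor were higher at estrus, whereas follistatin and the inhibin alpha subunit were lower. Inhbb rose 5.35-fold and Inhba 2.99-fold in mean FPKM (sequenced fragments normalised to transcript length and library size), Acvr1b rose 2.88-fold, and Fst was 7.49-fold and Inha 2.28-fold lower. Fstl1, Fstl3, Acvr2a and Acvr2b did not pass the test. The test was limma on log2(FPKM + 1) over the 13920 genes that reached 1 FPKM in 3 or more libraries, at a Benjamini-Hochberg adjusted p under 0.05, and fold changes below are estrus minus diestrus on that scale, where changes of genes near 0 come out too small. Of the 9 genes, 3 were called higher, against 17.2% of all tested genes, and 2 lower, against 14.0%. Groups did not overlap at 6 of the 9, against 40.6% of all tested genes. All 9 were tested, but Inha passed the expression filter only through the diestrus libraries, where it was high, so its place in these counts is partly set by the filter.

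**Figure D1:**
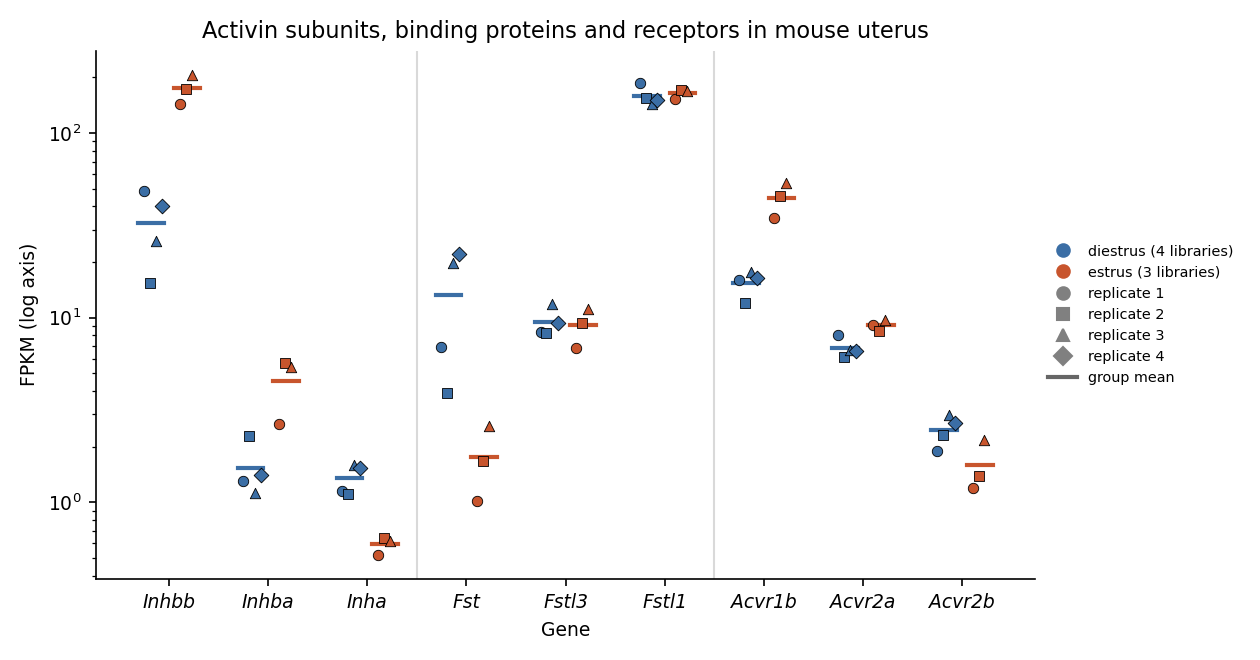
FPKM (log axis) of the 9 genes in each library, with diestrus in blue, estrus in orange, the symbol giving the replicate and the bar the group mean. Inhbb and Acvr1b lie higher in all 3 estrus libraries than in any diestrus library, Fst and Inha lie lower in all 3, and the libraries of both groups overlap for Fstl1, Fstl3 and Acvr2b.

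The RNA came from uteri whose libraries correlated within a group at Spearman values of 0.916 to 0.974. Libraries of different groups correlated at 0.82 to 0.919, so the ranges just overlap. Absolute depth is unknown because FPKM carries no read count. Relative depth was estimated from the most common ratio between a library and estrus replicate 1, among genes at very low values in both. This put it between 0.92 and 1.36 times that of estrus replicate 1, taking such genes to hold equal fragment counts. Diestrus replicate 1 lay nearest to the estrus libraries on the first principal component (-11.35, against -36.3 to -61.95 for the other diestrus libraries and 47.0 to 59.9 for estrus). Markers of epithelium, stroma and smooth muscle were present in every library. Epithelial markers were higher at estrus at 6 of 8 genes, with a summed level of 813 to 1072 FPKM in diestrus and 2783 to 3312 in estrus. Endothelial markers were lower at 6 of 6, with sums of 184 to 440 and 105 to 137 FPKM. Of 7 stroma markers 1 was higher and 1 lower, and of 6 smooth muscle markers 1 was higher. Of 5 leukocyte markers, Itgam, an integrin of myeloid cells, was higher at estrus (4.19 to 9.03 FPKM in diestrus, 22.9 to 99.5 in estrus), the macrophage genes Csf1r and Adgre1 were lower, and the summed levels of 52.0 to 128.7 and 65.2 to 186.8 FPKM overlapped. In whole tissue, more or fewer cells of a type and more or less RNA per cell cannot be told apart.

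Inhbb, the beta B subunit (GRCm38 chromosome 1, 119415465 to 119422248, minus strand, protein-coding), was the most abundant of the 3 subunit genes in every library. It was at 48.7, 15.3, 26.0 and 40.4 FPKM in diestrus replicates 1 to 4 and at 142.9, 173.5 and 206.9 FPKM in estrus replicates 1 to 3. The groups were far apart, with the lowest estrus library well above diestrus replicate 1, the highest of its group. The means were 32.6 ± 14.9 (SD, n = 4) and 174.5 ± 32.0 FPKM (SD, n = 3), or a log2 fold change of 2.49 (SE 0.37, 95% interval 1.64 to 3.34, limma adjusted p = 0.00387). Inhbb ranked 131 among the 2393 genes called higher, ordered by fold change, and its mean over the 7 libraries exceeded that of 94.8% of tested genes. The call held without each library in turn, with log2 fold changes of 2.19 to 2.72 and adjusted p values of 0.00288 to 0.0234.

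Inhba, the beta A subunit (chromosome 13, 16011851 to 16031621, plus strand), was expressed at a far lower level. It was at 1.30, 2.28, 1.12 and 1.41 FPKM in diestrus and at 2.66, 5.65 and 5.37 FPKM in estrus. All estrus libraries lay above all diestrus libraries, but estrus replicate 1 was close to diestrus replicate 2. The log2 fold change was 1.11 (SE 0.25, 95% interval 0.52 to 1.70, limma adjusted p = 0.0168). The call was lost without estrus replicate 2 (adjusted p = 0.0805) or estrus replicate 3 (0.0513).

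Within each library, where FPKM is scaled for length and genes can be set side by side, Inhbb exceeded Inhba 37.6-, 6.73-, 23.2- and 28.7-fold in diestrus and 53.8-, 30.7- and 38.6-fold in estrus. These ratios overlap between the groups, and diestrus replicate 2, with the least Inhbb and the most Inhba of its group, gave the smallest. Beside the rise of both genes stands that of the epithelial markers. Inhbb came to 1.85 to 5.09% of the summed epithelial markers in diestrus and at least 5.14% in each estrus library, so the groups just did not overlap. Inhba came to 0.105 to 0.276% and 0.0955 to 0.182%, which overlap. Whether the epithelial share of the tissue has a part in the rise of either gene was not tested.

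The promoters of the genes that rose are shown because they differ in base composition. RefSeq windows of GRCm38.p6 were found for 8 of the 9 genes, all but Fst. The runs below are the bases before the gene start on the gene's strand, 5′ to 3′, with each CG dinucleotide in capitals. They are chr1:119422249-119422498 (minus strand) for Inhbb, chr13:16011601-16011850 (plus strand) for Inhba and chr15:101173822-101174066 (plus strand) for Acvr1b.
Inhbb: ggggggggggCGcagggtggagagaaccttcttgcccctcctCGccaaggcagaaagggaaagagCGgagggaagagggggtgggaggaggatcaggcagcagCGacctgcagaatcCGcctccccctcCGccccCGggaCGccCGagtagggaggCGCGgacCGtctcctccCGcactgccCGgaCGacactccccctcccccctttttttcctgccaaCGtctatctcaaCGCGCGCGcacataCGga
Inhba: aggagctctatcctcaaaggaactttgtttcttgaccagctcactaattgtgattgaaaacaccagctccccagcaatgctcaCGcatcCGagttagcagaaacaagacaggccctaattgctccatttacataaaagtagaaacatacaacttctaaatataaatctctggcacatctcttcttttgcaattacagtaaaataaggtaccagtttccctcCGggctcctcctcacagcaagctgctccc
Acvr1b: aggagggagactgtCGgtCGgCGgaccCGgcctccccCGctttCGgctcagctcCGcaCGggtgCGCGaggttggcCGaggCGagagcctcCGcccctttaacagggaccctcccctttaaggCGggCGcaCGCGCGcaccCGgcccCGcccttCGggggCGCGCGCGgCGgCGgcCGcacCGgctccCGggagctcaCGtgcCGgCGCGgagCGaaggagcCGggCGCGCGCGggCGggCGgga
The Inhbb run held 21 CG dinucleotides and was 68.0% G or C, and the Inhba run held 3 at 43.2%. Across the first listed 250-base window of each of 27025 genes, the median was 6 CG dinucleotides and 52.0% G or C. Of these windows, 83.9% had fewer CG dinucleotides than Inhbb, 29.6% fewer than Inhba and 99.2% fewer than Acvr1b, whose 250-base window held 78.8% G or C. Members that were not called all lay above the median of 6, with 49 CG dinucleotides for Acvr2a, 24 for Acvr2b, 22 for Fstl3 and 16 for Fstl1. Inha, called lower, held 4.

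Hormone response motifs were searched on both strands in the 250 bases before the start of the 8 genes. The palindromic estrogen response element, written as GGTCA and TGACC with any 3 bases between them, matched in none of the 8 windows and in 0.0629% of all 27025. The progesterone and glucocorticoid receptor motif, written as GNACA and TGTNC with any 3 bases between them, matched in none of the 8 and in 0.381% of all, and the palindromic Smad element GTCTAGAC in none and in 0.174%. The estrogen response element's arm GGTCA, which lies within the palindrome, matched once in Inha and Inhba and at 2 places in Fstl3, and it was present in 34.9% of all windows. The Smad-type letters CAGACA matched in Fstl3 among the 8 genes and in 17.1% of all windows. These matches describe letters in a short window.

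Inha, the inhibin alpha subunit (chromosome 1, 75507077 to 75510366, plus strand), is made mainly in the ovary and was scarce in the uterus. It was at 1.15, 1.11, 1.59 and 1.54 FPKM in diestrus and at 0.518, 0.640 and 0.619 FPKM in estrus. Each estrus library was below each diestrus library. The log2 fold change was -0.55 (SE 0.14, 95% interval -0.88 to -0.23, limma adjusted p = 0.0234, and 0.0165 with no expression filter). The call was lost when diestrus replicate 3 or 4 was left out (adjusted p = 0.0502 and 0.0615), when any of the 3 estrus libraries was (0.0771, 0.0886 and 0.0531), and with quantile normalization (0.0769).

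The ovary is a neighbouring organ that expresses Inha, so ovarian markers were read in the same libraries. Of 9 such genes, 7 were under 1 FPKM in every library, with the FSH receptor gene Fshr and the egg-coat gene Zp3 listed at 0 in all 7 libraries. The summed level was 14.8 to 29.5 FPKM in diestrus and 20.9 to 23.0 in estrus, nearly all of it from Foxl2 and Star. Star, which carries cholesterol into mitochondria for steroid synthesis, fell from between 3.60 and 13.3 FPKM to between 1.72 and 2.15 (limma adjusted p = 0.0248). Foxl2 leaned the other way, at 9.34 to 19.5 FPKM in diestrus and 18.5 to 20.9 in estrus (limma adjusted p = 0.133). Of 4 oviduct markers, Ovgp1, the oviductal glycoprotein, was lower at estrus (8.67 to 53.2 FPKM in diestrus, 0.906 to 2.53 in estrus). The others did not go with it. Pax8 was level (25.7 to 55.5 and 29.0 to 41.7 FPKM), and Foxj1 leaned higher at estrus (0.231 to 2.13 and 1.67 to 4.37 FPKM, limma adjusted p = 0.113). Dnah5 stayed at or under 0.198 FPKM. The summed level of the oviduct markers was 40.2 to 81.1 and 35.9 to 45.3 FPKM. The part of ovary or oviduct in the Inha values was not tested. The beta subunits together exceeded Inha 43.5-, 15.8-, 17.0- and 27.2-fold in diestrus and 280.9-, 279.9- and 343.1-fold in estrus. That these ratios did not overlap follows from the values above, as Inha was lower and both beta subunits were higher in every estrus library. The ratios also rest on the low values of Inha.

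Fst, follistatin itself (chromosome 13, 114452290 to 114458951, minus strand), fell the most of the 9 genes and varied the most within a group. It was at 6.92, 3.89, 19.8 and 22.1 FPKM in diestrus and at 1.02, 1.66 and 2.60 FPKM in estrus. Diestrus replicates 3 and 4 were high and replicates 1 and 2 intermediate, and every estrus library lay below them all. The means were 13.2 ± 9.11 (SD, n = 4) and 1.76 ± 0.79 FPKM (SD, n = 3), or a log2 fold change of -2.12 (SE 0.55, 95% interval -3.41 to -0.84, limma adjusted p = 0.0256), rank 73 among the 1943 genes called lower. The call was lost without diestrus replicate 3 or 4 (adjusted p = 0.0551 and 0.0547) or estrus replicate 1 or 2 (0.0835 and 0.0882), and a two-sided exact permutation test of the 7 libraries gave p = 0.0571, where the smallest it can give is 0.0286. An antisense gene, Gm47040, overlaps exons of Fst, and strand-specific counting is not stated in the sources used here.

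Fstl3, the other activin-binding relative (chromosome 10, 79777272 to 79782630, plus strand), was at 8.37, 8.24, 11.8 and 9.36 FPKM in diestrus and at 6.86, 9.34 and 11.2 FPKM in estrus. The groups overlapped, and the log2 fold change was -0.06 (95% interval -0.50 to 0.39, limma adjusted p = 0.840). Exons of Prss57 on the opposite strand overlap Fstl3, but Prss57 itself stayed at or under 0.138 FPKM. Fstl1, a secreted glycoprotein with a follistatin domain that is related to Sparc (chromosome 16, 37776873 to 37836514, plus strand), was abundant and even. It was at 186.5, 154.8, 143.4 and 150.1 FPKM in diestrus and at 152.9, 171.8 and 169.6 FPKM in estrus. Its log2 fold change was 0.06 (95% interval -0.26 to 0.38, adjusted p = 0.759), and its sign turned with quantile normalization (-0.21).

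With Fst lower, Fstl3 level and both Inhbb and Inhba higher at estrus, the ratio of inhibitor to subunit transcripts was lower in every estrus library. The sum of Fst and Fstl3 by itself overlapped between the groups. Estrus replicate 3, with 2.60 FPKM of Fst and 11.2 of Fstl3, lay above diestrus replicate 2, with 3.89 and 8.24. Inhbb alone went from between 15.3 and 48.7 FPKM to between 142.9 and 206.9. The parts of Fst and of Inhbb in the lower ratio were not tested. The sum of Fst and Fstl3 was 0.306, 0.689, 1.16 and 0.753 times the sum of Inhba and Inhbb in diestrus replicates 1 to 4. In estrus it was 0.0541, 0.0614 and 0.0649 times that sum. Every estrus value lay below every diestrus value, and diestrus replicate 1 was the diestrus library nearest to estrus. The ratio is one of transcripts, was given no test, and does not depend on the scaling of a library.

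**Figure D2:**
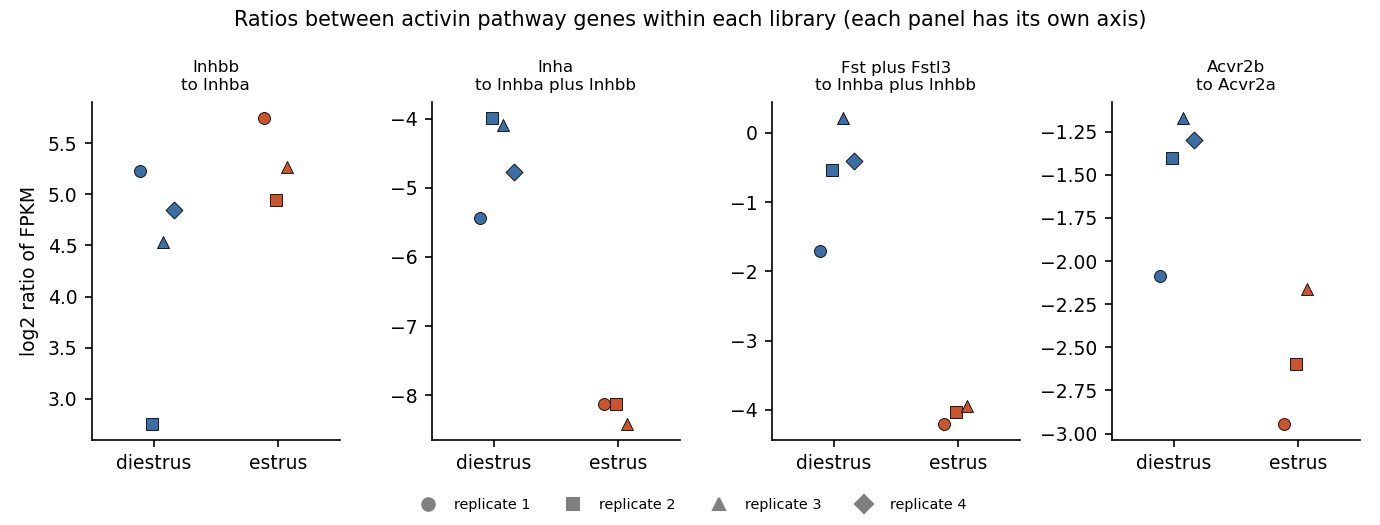
log2 ratios of FPKM within each library for 4 pairs of genes or sums, with diestrus in blue and estrus in orange and the symbol giving the replicate. The groups overlap for Inhbb to Inhba. They lie apart for Inha to the beta subunits and for Fst plus Fstl3 to the beta subunits, and only just for Acvr2b to Acvr2a.

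Among the receptors, only the type I receptor Acvr1b (chromosome 15, 101174067 to 101213684, plus strand), also called ALK4, passed the test with all libraries. It was at 15.9, 12.0, 17.6 and 16.4 FPKM in diestrus and at 34.7, 45.9 and 53.3 FPKM in estrus. The lowest estrus library was well above the highest diestrus library. The means were 15.5 ± 2.43 (SD, n = 4) and 44.6 ± 9.40 FPKM (SD, n = 3), or a log2 fold change of 1.46 (SE 0.19, 95% interval 1.03 to 1.89, limma adjusted p = 0.00250). The adjusted p was 0.00389 to 0.0196 without each library in turn. Acvr1b came to 1.45 to 2.02% of the summed epithelial markers in diestrus and 1.25 to 1.81% in estrus, which overlap. Whether the rise of those markers has a part in that of Acvr1b was not tested.

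The type II receptors were expressed at lower levels, and neither passed the test. Acvr2a (chromosome 2, 48814109 to 48903269, plus strand) was at 8.04, 6.09, 6.66 and 6.63 FPKM in diestrus and at 9.17, 8.43 and 9.69 FPKM in estrus. The groups did not overlap, but the log2 fold change of 0.37 (SE 0.13, 95% interval 0.07 to 0.67) had a limma adjusted p of 0.0644, which was 0.0275 without diestrus replicate 1. Exons of Orc4 on the opposite strand overlap Acvr2a, and Orc4 was at 6.55 to 13.9 FPKM in diestrus and 11.4 to 15.4 in estrus. Acvr2b (chromosome 9, 119402118 to 119434995, plus strand) was at 1.90, 2.30, 2.96 and 2.69 FPKM in diestrus and at 1.19, 1.39 and 2.16 FPKM in estrus. Estrus replicate 3 fell within the diestrus range, and the log2 fold change was -0.43 (95% interval -0.86 to -0.01, adjusted p = 0.106). Acvr2a exceeded Acvr2b 2.25- to 4.24-fold in the diestrus libraries and 4.48- to 7.71-fold in the estrus libraries, which only just do not overlap.

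**Figure D3:**
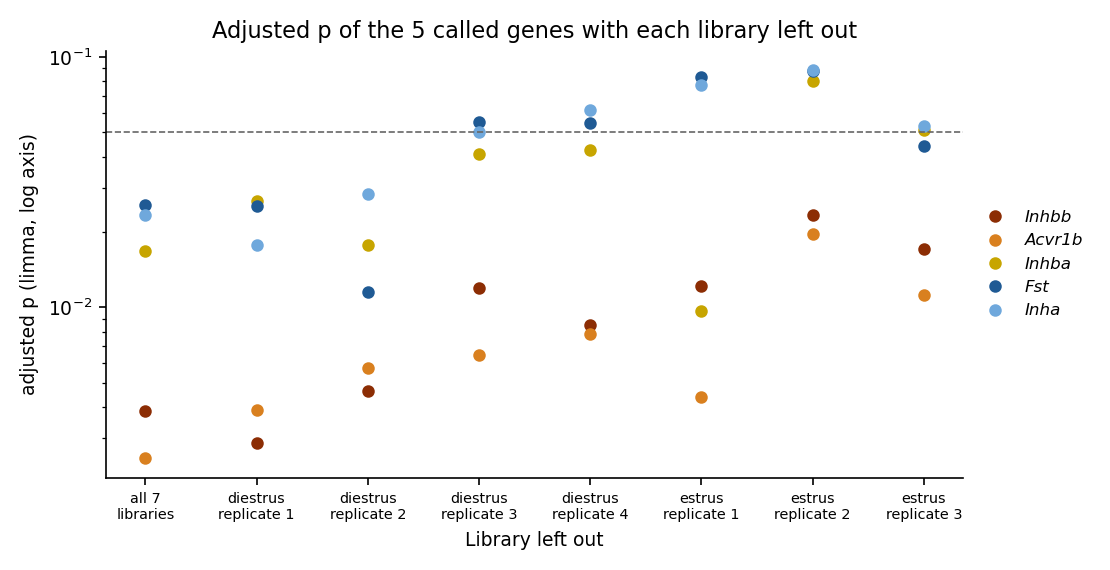
limma adjusted p (log axis) of the 5 called genes with all 7 libraries and with each library left out, with the dashed line at 0.05. Inhbb and Acvr1b stay below the line throughout, and Inhba, Fst and Inha cross it when certain libraries, including estrus replicate 2, are left out.

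By mean level in diestrus, the order was Fstl1 (158.7 FPKM), Inhbb (32.6), Acvr1b (15.5), Fst (13.2), Fstl3 (9.44), Acvr2a (6.86), Acvr2b (2.46), Inhba (1.53) and Inha (1.35). In estrus it was Inhbb (174.5), Fstl1 (164.8), Acvr1b (44.6), Fstl3 (9.12), Acvr2a (9.09), Inhba (4.56), Fst (1.76), Acvr2b (1.58) and Inha (0.592). Neighbours in these orders whose libraries overlapped were Inhbb and Acvr1b, Acvr1b and Fst, Fst and Fstl3, Acvr2b and Inhba, and Inhba and Inha in diestrus, and Inhbb and Fstl1, Fstl3 and Acvr2a, and Fst and Acvr2b in estrus. Inhbb lay well under Fstl1 in every diestrus library and overlapped it in estrus. Fst overlapped Acvr1b and Fstl3 in diestrus and Acvr2b in estrus.

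Genes most like the 5 called members were sought among 10584 or 10585 tested genes averaging 5 FPKM or more, by the root mean square difference of mean-centred log2(FPKM + 1) over the 7 libraries. Among the nearest to Inhbb were Chac2 and 1700024P16Rik, at 0.305 and 0.334 log2 units, against a spread of 1.33 of Inhbb about its own mean. Chac2 had means of 11.3 FPKM in diestrus and 51.2 in estrus. Nearest to Fst were 3632451O06Rik, Prrt2 and Tsc22d3, a glucocorticoid-induced leucine zipper gene, at 0.223, 0.311 and 0.317 against a spread of 1.29. Nearest to Acvr1b were Traf1, an adaptor of tumour necrosis factor receptors, Tmc4 and Mir22hg, at 0.0898, 0.0984 and 0.119 against 0.756. For Inhba they were Pde7b, Nlrx1 and Atp6v0a1 (0.144, 0.181 and 0.182 against 0.632), and for Inha Lysmd4, Itpkc and Zfp516 (0.0438, 0.0448 and 0.0514 against 0.295).

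The rest of the pathway was read from lists of related genes. All tested genes had a median log2 fold change of 0.05, with 17.2% called higher and 14.0% lower, and the counts of each list below stand beside these shares. Of 12 other ligands of the activin and TGF-beta branch, 5 were tested, none rose and 4 fell, with a median of -0.94. Gdf11, which uses the activin type II receptors, fell from 11.5 ± 0.75 (SD, n = 4) to 5.44 ± 0.79 FPKM (SD, n = 3) (limma adjusted p = 0.00279). Gdf1 fell from 2.46 to 0.686 FPKM (adjusted p = 0.00338), but it passed the filter only through diestrus and shares its transcript with Cers1, so its value is uncertain. Tgfb1 fell by 0.78 and Tgfb3 by 0.94 (adjusted p = 0.0412 and 0.0487), but each passed with a library left out only when that library was diestrus replicate 1, and neither passed with no expression filter (0.0667 and 0.0802). The other beta subunit genes Inhbc and Inhbe were at or under 0.0199 FPKM, Inhbe being listed at 0 throughout, and Nodal and Mstn at or under 0.0743 and 0.00946 FPKM.

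Of 11 other receptors and coreceptors, 8 were tested, 1 rose and 1 fell, with a median log2 fold change of -0.02. Acvr1, a type I receptor known as ALK2, rose by 0.54 (limma adjusted p = 0.0132, and 0.0766 without estrus replicate 2). Eng, an endothelial coreceptor, fell by 0.54 (adjusted p = 0.0215), with 0.0551, 0.0686 and 0.0832 without diestrus replicate 4 and estrus replicates 1 and 2. The endothelial markers fell in the same libraries, and their part in the Eng value was not tested. Tgfbr1 stood at 16.6 and 21.1 FPKM (log2 0.33, adjusted p = 0.0563). Tgfbr3, the inhibin coreceptor betaglycan, was at 25.8 to 61.4 FPKM in diestrus and 24.5 to 40.8 in estrus (adjusted p = 0.289), and Acvr1c stayed at or under 0.179 FPKM.

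Of 17 Smads and Smad regulators, 16 were tested, 5 rose and 2 fell, with a median of 0.19. Pmepa1, a membrane protein that keeps Smads from the receptor, was at 14.2, 24.0, 8.45 and 8.76 FPKM in diestrus and at 59.8, 57.1 and 49.0 FPKM in estrus. The groups lay apart, by 2.04 on the log2 scale (SE 0.33, limma adjusted p = 0.00524). Skil, the co-repressor SnoN, rose from 9.31 ± 1.85 (SD, n = 4) to 27.8 ± 1.27 FPKM (SD, n = 3) (adjusted p = 0.00142). Smurf1, a ubiquitin ligase for Smads, rose from 11.9 to 22.8 FPKM (log2 0.88, adjusted p = 0.00397). These 3 passed without each library in turn.

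The remaining calls in that list were named after their values were seen. The inhibitory Smad7 rose by 0.86 (limma adjusted p = 0.0202), and was at 0.0529, 0.0651 and 0.0592 without diestrus replicate 4 and estrus replicates 1 and 3. Trim33 rose by 0.68 (0.0151), Smad3 fell by 0.75 (0.0159) and Zfyve9, which presents Smads to the receptor, fell by 0.74 (0.0125). Without estrus replicate 2 these 3 had adjusted p values of 0.0785, 0.0700 and 0.0667. Smad2 was at 5.48 to 7.41 FPKM in diestrus and 7.35 to 8.21 in estrus (adjusted p = 0.109), and Smad4 at 33.1 to 47.2 and 36.3 to 55.8 FPKM (adjusted p = 0.595).

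**Figure D4:**
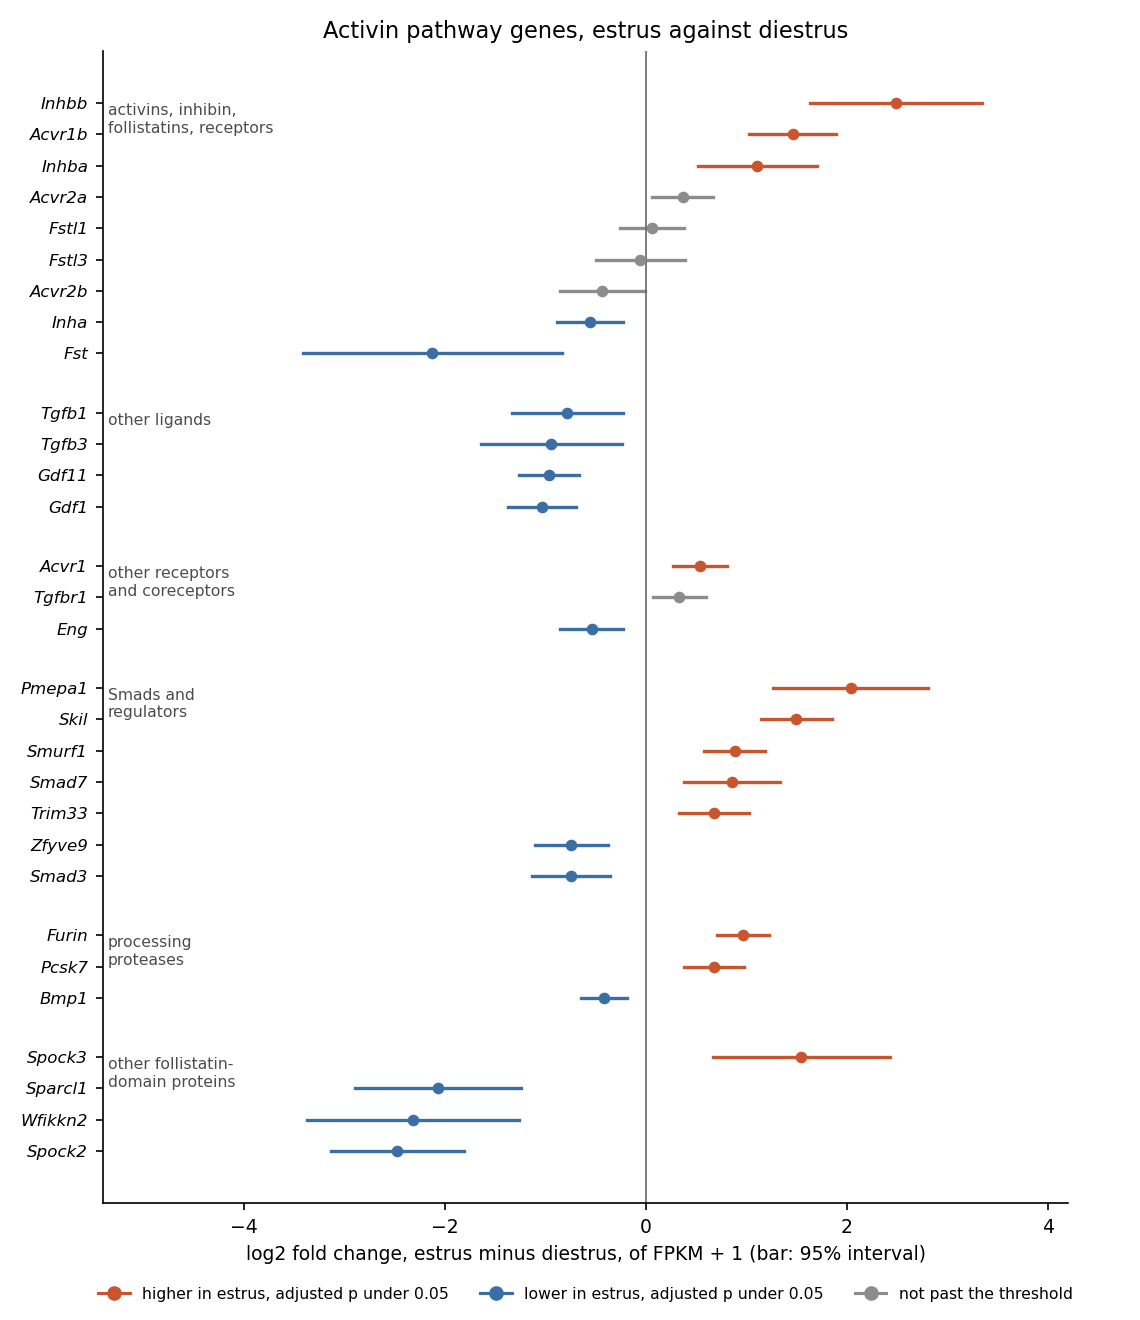
log2 fold change of FPKM + 1, estrus minus diestrus, with 95% intervals, for the 9 genes and for the pathway genes that passed the test or had the smallest p-values in their list. Orange is higher and blue lower at an adjusted p under 0.05, and grey did not pass. Inhbb (2.49) and Pmepa1 (2.04) lie farthest to the right, and Spock2 (-2.47) and Wfikkn2 (-2.32) farthest to the left.

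Of 6 proteases that process precursors of this family or free its ligands, 2 rose and 1 fell, with a median of 0.12. Furin, the convertase that cuts activin precursors, rose from 37.8 ± 2.46 (SD, n = 4) to 74.8 ± 6.39 FPKM (SD, n = 3) (log2 0.96, limma adjusted p = 0.00198). Pcsk7, another convertase, rose by 0.68 (adjusted p = 0.00888, and 0.0515 without estrus replicate 2). Bmp1, a procollagen protease that can also release ligands of this family, fell by 0.41 (adjusted p = 0.0193), with 0.0600 and 0.104 without estrus replicates 1 and 2 and 0.05 without diestrus replicate 4.

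Of 15 other proteins with follistatin domains, 11 were tested, 1 rose and 3 fell, with a median of -0.51. Wfikkn2, which binds and blocks Gdf11 and myostatin, was at 4.16, 6.46, 10.9 and 21.4 FPKM in diestrus and at 0.929, 0.853 and 1.30 FPKM in estrus. The estrus libraries all lay below the diestrus ones (log2 -2.32, SE 0.45, limma adjusted p = 0.00964), but Wfikkn2 met the expression filter only through diestrus, where it was high. With no filter its adjusted p was 0.0224. Spock2, a matrix proteoglycan, fell from 69.6 to 11.1 FPKM (log2 -2.47, adjusted p = 0.00194), and Sparcl1, a matrix protein, from 968.7 to 215.2 FPKM (log2 -2.07, adjusted p = 0.00630). All 3 passed without each library in turn. Spock3, named after its values were seen, rose from 0.430 to 3.57 FPKM (log2 1.55, adjusted p = 0.0213, and 0.0543 without diestrus replicate 4), and it passed the filter only through estrus.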

How the data were processed

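Total RNA was purified on columns with DNase, and Illumina TruSeq RNA libraries were prepared, per the labels' protocols. The values deposited by the authors are FPKM, 1 column a library, matched through the sample descriptions with 0 columns unmatched. The submitters' processing notes name TopHat2 2.0.4 and mm10 without saying what each was used for. How FPKM was computed, on which annotation and with which strand setting, is not given in the sources used here. FPKM are not counts, so limma 3.58.1 in R 4.3.3 was used on log2(FPKM + 1), with an intensity trend and 2-group design. The fit was also run on simulated data with independent normal noise for each gene. That run does not cover shifts shared by the genes of a library, and no result here rests on it. Coordinates are from GENCODE M21 (GRCm38, the assembly called mm10), promoters from RefSeq, and figures from matplotlib 3.10.9.

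The members, gene lists and tests were chosen with earlier results of these data known. All 9 members are reported. From each pathway list, up to 3 tested genes with the smallest p are named, and the genes nearest to each called member, of which 1 is not reported here. The comparisons with summed epithelial markers, the motifs, and the remaining named pathway genes were chosen after values were seen. Adgre1 was read under its older symbol. Alternatives were leaving out each library, a replicate block, weighted libraries, exact permutation, quantile or median-ratio normalization, pseudocounts of 0.1 and 5, a floor of 5 FPKM on the mean or no filter, and moderation that was robust or had no trend.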

Additional observations from a re-analysis of the deposited data

How the results depend on the processing

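With all libraries, 4336 genes were called. The count was 9367 with library weights, 2281 with the replicate block and 1433 to 5311 without single libraries, with 1433 without estrus replicate 2, 2559 without diestrus replicate 4 and 2633 without estrus replicate 1. The members called higher stayed at 2 to 4. The members called lower were 1 with a mean of at least 5 FPKM, where Inha was not tested, 1 with quantile normalization, 1 with the replicate block, and 0 to 2 without single libraries. They were 0 in limma without diestrus replicates 3 or 4 or estrus replicates 1 or 2, and 2 members were then lower at an unadjusted p under 0.05. By exact permutation, Inha, Inhba, Inhbb and Acvr1b had p = 0.0286, the smallest it can give. Fstl1 turned to -0.21 with quantile normalization, and Fstl3 ran from -0.20 to 0.12 without single libraries, positive without diestrus replicate 3 or estrus replicate 1. Library weights, whose estimation stopped before it converged, brought Acvr2a and Acvr2b under the threshold (adjusted p = 0.0112 and 0.00206). Over the members and named pathway genes, 449 of 511 alternative values kept their direction and side of the threshold, 54 lost the call, 5 gained one and 3 turned sign.

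The replicate numbers were not taken as pairs: deviations of same-numbered libraries correlated at 0.198, 0.0243 and 0.169, and not every library correlated best with its own number. With the block, Inha had an adjusted p of 0.106, while Inhbb, Acvr1b, Inhba and Fst stayed called. Inha and Inhba lie near 1 FPKM, and what their reads allow cannot be stated without depth.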

Other observations

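Within diestrus, a pair of precursor-processing proteases, chosen after their values were seen, were high in the libraries where Fst was high. Tll1, a tolloid-like metalloprotease, was at 35.6 and 16.8 FPKM in diestrus replicates 3 and 4, against 2.36 and 2.40 in replicates 1 and 2. Pcsk5, a convertase, was at 40.3 and 22.0 FPKM in replicates 3 and 4, against 9.87 and 8.86 in replicates 1 and 2. In estrus, Tll1 was at 0.884, 0.515 and 1.14 FPKM and Pcsk5 at 6.63, 5.12 and 7.27 FPKM, below every diestrus library. Neither passed the test between the phases (limma adjusted p = 0.0670 and 0.0742). In the same list, Pcsk6 was also highest in diestrus replicates 3 and 4, but Furin, Pcsk7 and Bmp1 were not. Replicates 3 and 4 also lay farthest from estrus on the first principal component (-47.98 and -61.95, against -11.35 and -36.27). How many of all genes share this split was not counted.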
